A study of Mus musculus with 16 samples.

Results

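T cell identity genes are the genes whose RNA marks a T lymphocyte: the chains of the T cell receptor and its CD3 partners, the coreceptors, and surface, signalling and nuclear proteins that T cells carry. A list of 31 such genes was matched by symbol to a table of 54532 genes measured by RNA sequencing in 16 mouse melanomas. All 31 were found, each at 1 row, and 29 of them passed a filter on low values (at least 1 FPKM in at least 4 libraries), as did 12319 genes in all. FPKM are fragments per kilobase of gene, scaled between libraries. The tumours grew under the skin of C57BL/6J mice aged 8 weeks, of both sexes, from B16F10, a melanoma line from the same strain, and were collected at end stage. The cells were either wild-type (WT) or BdP, a derivative with low Pros1 that the sample titles call deficient and another label a knockdown. Pros1 encodes protein S, a ligand of receptors on macrophages. Whether BdP is 1 clone or a pool, and how Pros1 was lowered, is not given in the sources used here. Mice received either the vehicle PBS or cisplatin, a DNA-crosslinking drug, at 5 mg/kg a day by intraperitoneal injection. Dosing began 8 days after implantation and ran on days 1 to 3 and again on days 7 to 9. Each of the 4 groups (WT PBS, WT cisplatin, BdP PBS, BdP cisplatin) had 4 libraries, numbered 1 to 4 in the labels.

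A T cell reads antigen through the alpha and beta chains of its receptor. These chains have no signalling tail of their own and depend on the CD3 and zeta chains, which the kinase Lck phosphorylates and on which the kinase Zap70 docks. Lck is brought to the receptor by the coreceptor CD4 on helper and regulatory T cells or CD8 on cytotoxic T cells. Melanoma cells are not known to make a T cell receptor. In a tumour, receptor transcripts are thus taken to come from infiltrating cells and from any lymphoid tissue taken along. Which cells made the RNA of the other genes was not tested.

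Reads assigned to genes ran from 10051843 to 27055771 per library. Mitochondrial transcripts took 76.9% of reads in WT PBS 1, 12.2% in WT cisplatin 3 and 21.7% in WT cisplatin 4. These libraries, rich in mitochondrial reads, were all WT. Fits without them kept WT cisplatin 1 and 2 and lost WT cisplatin 3, the high T cell library of its group. WT PBS 1 had 2322202 reads from other genes, and 1 read of Cd3e there was worth 0.126 FPKM. The 31 genes together had 182 reads in WT PBS 1 and 36225 in BdP PBS 2, so values near 0 in WT PBS 1 rest on a few reads. Pros1 was at 4.79 to 11.5 FPKM in the WT libraries and at 1.24 to 2.52 FPKM in the BdP libraries, without overlap. Melanocyte markers such as Mlana (554 to 977 FPKM) were high in every library, as the tissue label says. In bulk tumour RNA, fewer T cells and less RNA per T cell cannot be told apart.

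The receptor's 3 CD3 genes lie together on chromosome 9, from 44969572 to 45009627 (GRCm38), a span of 40056 bases in which Cd3g and Cd3d are read away from each other from starts 1355 bases apart. The 250 bases before each start are printed here because the genes are neighbours. Their profiles over the 16 tumours were alike, but so were those of genes elsewhere. With the mean of the other 30 genes, Pearson r was 0.981 to 0.985 for these 3 and 0.997 for Cd2 on chromosome 3. The median of the 31 genes was 0.967. The sequences are from RefSeq (GRCm38.p6), 5′ to 3′ on the gene's strand. Capitals mark matches, on either strand, to 4 short motifs, none of which overlap here. The core of ETS factor sites was searched as AGGAAG. Sites of the RUNX family, which has roles in T cell development, were searched as TGTGGT. For GATA factors, among them the helper cell factor GATA3, the letters were AGATAA. For the TCF/LEF family, to which the product of Tcf7 belongs, they were CTTTGA.
Cd3g (chr9:44980432-44980681, minus strand): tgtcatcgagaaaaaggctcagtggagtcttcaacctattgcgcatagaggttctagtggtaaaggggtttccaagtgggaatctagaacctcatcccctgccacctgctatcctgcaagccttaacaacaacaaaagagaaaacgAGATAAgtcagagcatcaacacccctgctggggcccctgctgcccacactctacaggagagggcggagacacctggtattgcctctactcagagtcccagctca
Cd3d (chr9:44981536-44981785, plus strand): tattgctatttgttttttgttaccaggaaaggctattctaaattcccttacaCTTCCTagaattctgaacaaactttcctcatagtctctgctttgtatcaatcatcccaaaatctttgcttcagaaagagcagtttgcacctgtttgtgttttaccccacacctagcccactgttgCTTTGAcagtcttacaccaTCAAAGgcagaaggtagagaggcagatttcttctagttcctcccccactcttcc
Cd3e (chr9:45009612-45009861, minus strand): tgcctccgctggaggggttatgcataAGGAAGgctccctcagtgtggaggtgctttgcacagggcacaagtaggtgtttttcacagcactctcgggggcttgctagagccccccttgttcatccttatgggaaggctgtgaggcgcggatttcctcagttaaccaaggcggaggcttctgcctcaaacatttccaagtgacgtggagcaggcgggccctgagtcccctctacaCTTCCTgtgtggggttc
The Cd3d window held 1 ETS and 2 TCF/LEF matches, that of Cd3e 2 ETS matches and that of Cd3g 1 GATA match, so no motif was common to the 3. A promoter was found for 19 of the 31 genes, with 24 windows counting further start sites. The ETS letters were in 14 of the 24 windows (58.3%) and in 29.6% of 32536 windows of all genes. The TCF/LEF letters were in 16.7% of the 24 and 13.9% of all windows, the RUNX letters in 12.5% and 14.0%, and the GATA letters in 8.33% and 9.97%. These matches are letters in a window and not shown to be bound.

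The T cell genes moved between tumours as a block, and the spread within every group was wide. The mean log2(FPKM + 1) over the 31 genes was 0.93, 1.25, 2.72 and 0.21 in the WT PBS tumours, 0.43, 0.67, 2.28 and 0.97 in WT cisplatin, 2.80, 4.01, 1.02 and 2.09 in BdP PBS and 1.28, 3.18, 3.24 and 2.27 in BdP cisplatin. Replicate 3 was the 1 high library in each WT group, while 3 of 4 BdP libraries under either treatment were above 2. Group means were 1.28 ± 1.06 (SD, n = 4), 1.09 ± 0.82, 2.48 ± 1.26 and 2.49 ± 0.92, and the groups overlapped. BdP PBS 2 had the highest value of 28 of the 31 genes, and BdP cisplatin 3 that of the other 3. WT PBS 4 had the lowest value, alone or tied, of 23 genes, with 1 gene at 1 FPKM or more and 8 genes at 0. Each gene followed the mean of the other 30, with a Pearson r over the 16 libraries from 0.83 (Tcf7) to 1.00 (Cd2) and a median of 0.97. These r describe libraries that share their scaling and differ in how much T cell RNA they hold.

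**Figure D1:**
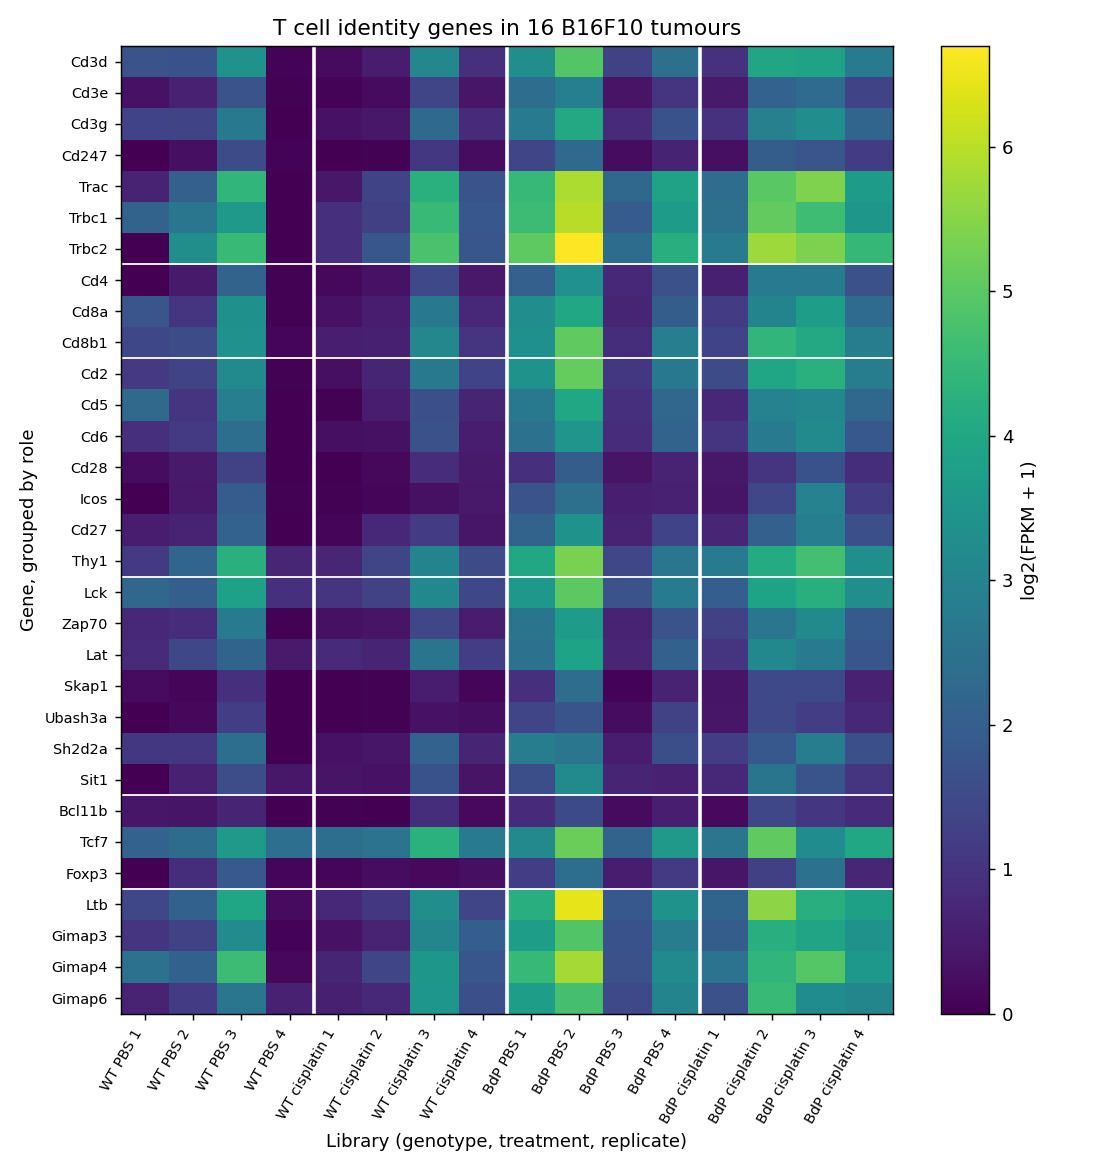
Level of each of the 31 T cell identity genes (rows, grouped by role) in each of the 16 libraries (columns, grouped by genotype and treatment), as log2(FPKM + 1) from dark (0) to bright. Whole columns are bright or dark: BdP PBS 2 is the brightest and WT PBS 4 the darkest.

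The CD3 chains carry the receptor's signal into the cell. Cd3e, the epsilon chain, measured 0.251, 0.539, 2.30 and 0.0278 FPKM in WT PBS, 0.0530, 0.150, 1.63 and 0.334 in WT cisplatin, 4.22, 6.41, 0.275 and 1.06 in BdP PBS, and 0.399, 3.32, 4.09 and 1.59 in BdP cisplatin. It reached 1 FPKM in 1 of 4 libraries of each WT group and in 3 of 4 of each BdP group. The low end was thin: 2 reads of Cd3e in WT PBS 1 and 3 in WT PBS 4. Cd3d, the delta chain, ranged from 0.0417 to 29.1 FPKM over the 16 tumours and Cd3g, the gamma chain, from 0.0116 to 15.6. Cd247, the zeta chain on which Zap70 docks, was the lowest of the 4, at 0 to 3.93 FPKM.

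The constant regions of the receptor itself were among the most abundant of these transcripts per length. Trbc2 had the highest mean FPKM of the 31 genes in 3 of 4 groups, and Tcf7 in WT cisplatin (8.36 against 8.01 FPKM). Trac, shared by all alpha chains (chromosome 14, 54220521 to 54224206), measured 0.548, 3.13, 20.1 and 0 FPKM in WT PBS and 0.347, 1.57, 17.9 and 2.37 in WT cisplatin. In BdP tumours it measured 21.6, 57.3, 3.77 and 13.6 FPKM under PBS and 4.26, 30.5, 41.4 and 12.0 under cisplatin. Every BdP library had at least 3.77 FPKM of Trac, a level that 2 of the 8 WT libraries reached. Trbc1 (chromosome 6, 41538218 to 41539881) and Trbc2 (41546730 to 41548352), the alternative constant regions of the beta chain, reached 62.2 and 102.9 FPKM in BdP PBS 2. Their transcripts in GENCODE M21 are 95.9% identical over 508 aligned bases with an identical run of 259 bases, so the split of reads between them is uncertain.

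The coreceptors separate the main classes of T cells. Cd4, of helper and regulatory T cells (but found on other leukocytes too), measured 0, 0.394, 3.41 and 0.0188 FPKM in WT PBS and 0.0983, 0.253, 1.77 and 0.380 in WT cisplatin. In BdP it measured 3.17, 9.56, 0.685 and 2.15 under PBS and 0.513, 5.65, 5.64 and 2.19 under cisplatin. Cd8a, the alpha chain of CD8, measured 2.39, 1.06, 9.29 and 0.0208 FPKM in WT PBS and 0.258, 0.426, 5.51 and 0.702 in WT cisplatin. Its BdP values were 8.75, 14.8, 0.627 and 2.91 under PBS and 1.28, 7.05, 12.4 and 4.08 under cisplatin. The high libraries were those high in Cd3e, and the groups overlapped in all 4 comparisons. Cd8b1, the beta chain, ranged from 0.0766 to 32.5 FPKM.

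**Figure D2:**
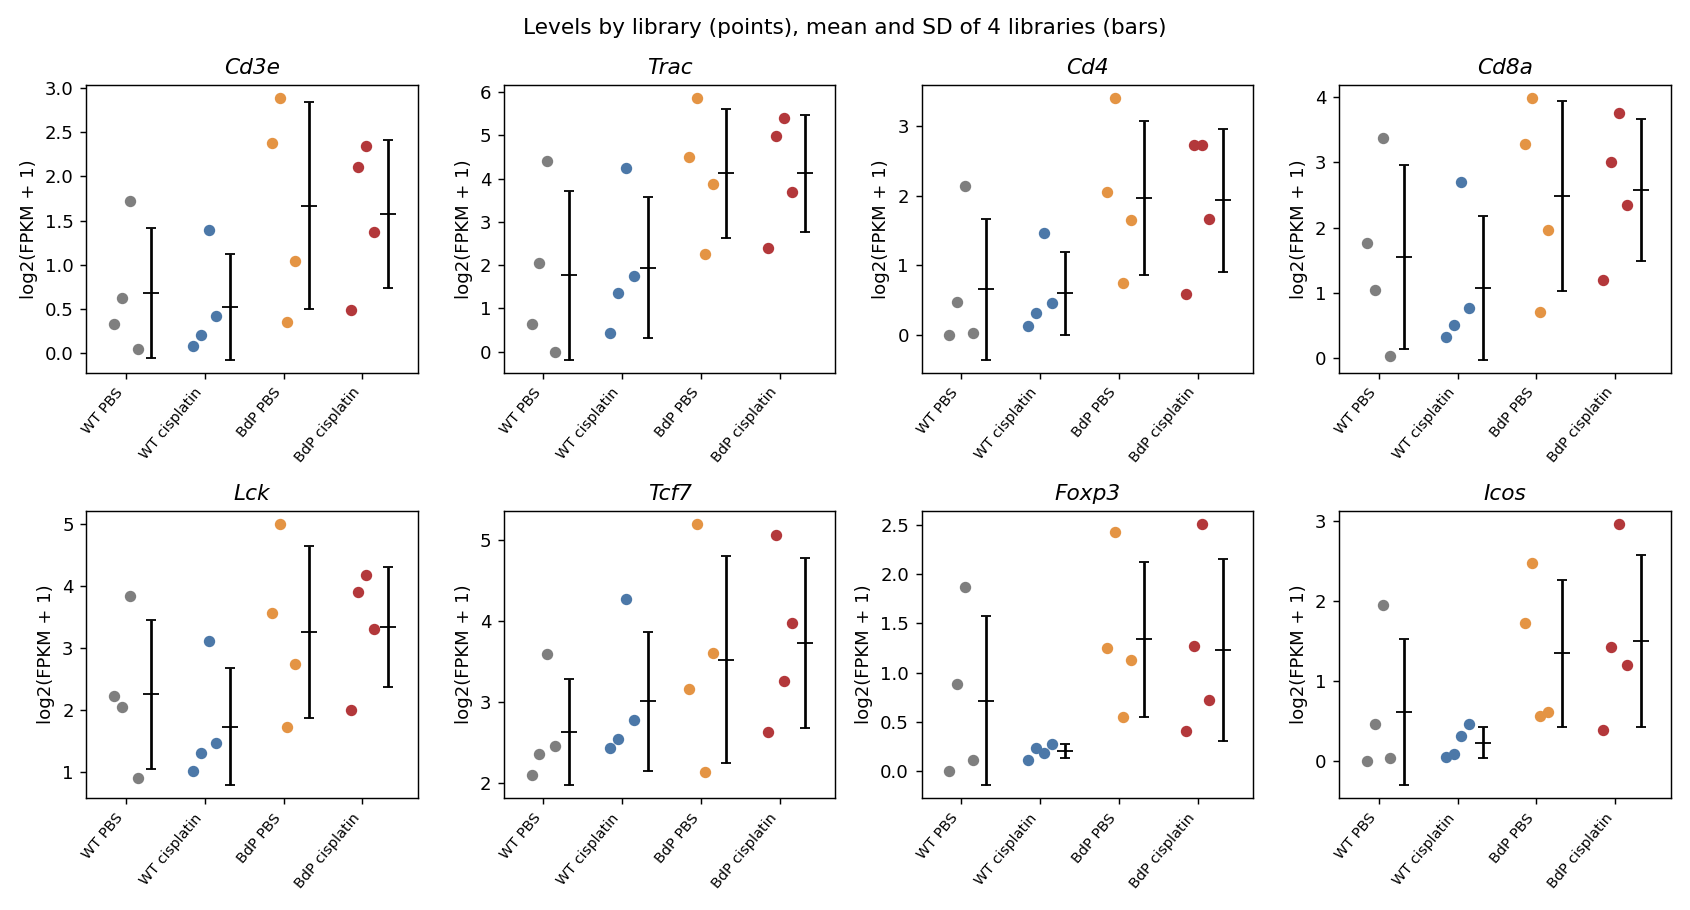
Levels of 8 T cell genes as log2(FPKM + 1) on the vertical axis, by group on the horizontal axis. Points are libraries, and the black bar is the mean with the SD of 4 libraries. Each WT group has 1 high library for Cd3e, Trac, Cd4, Cd8a and Lck, and the Foxp3 values of WT cisplatin lie together near 0.

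Of the surface proteins, Thy1 and Cd2 had the highest levels. Thy1, a glycoprotein on mouse T cells and also on some stromal cells, measured 1.20, 3.59, 18.2 and 0.657 FPKM in WT PBS, 0.638, 1.62, 7.06 and 1.93 in WT cisplatin, 15.2, 40.0, 1.68 and 5.19 in BdP PBS and 5.95, 16.4, 25.1 and 9.07 in BdP cisplatin. Under cisplatin, 3 of 4 BdP libraries were above the highest WT library. Cd2, an adhesion receptor, ranged from 0.0217 to 33.6 FPKM and had the profile closest to the mean of the other genes. Cd6, a scavenger-type receptor that tunes T cell adhesion, had group means of 1.61, 0.756, 4.77 and 4.41 FPKM (WT PBS, WT cisplatin, BdP PBS, BdP cisplatin). The related receptor Cd5 reached 14.9 FPKM, and Cd27, a costimulatory receptor of the TNF family, 9.67 FPKM. Cd28, which gives the classical costimulatory signal, stayed low, from 0.0124 to 2.91 FPKM.

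Icos, a costimulatory receptor that activated and regulatory T cells raise, had a profile less like the rest (r = 0.88 with the mean of the other 30 genes). It measured 0, 0.374, 2.86 and 0.0221 FPKM in WT PBS, 0.0315, 0.0595, 0.239 and 0.372 in WT cisplatin, 2.31, 4.52, 0.478 and 0.525 in BdP PBS and 0.311, 1.67, 6.79 and 1.29 in BdP cisplatin. It was highest in BdP cisplatin 3 and low in WT cisplatin 3, a library otherwise rich in T cell genes.

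Among signalling genes, Lck measured 3.67, 3.11, 13.3 and 0.866 FPKM in WT PBS, 1.02, 1.48, 7.69 and 1.74 in WT cisplatin, 10.8, 31.2, 2.31 and 5.68 in BdP PBS and 3.00, 13.9, 17.2 and 8.87 in BdP cisplatin. In WT PBS 4, where Trac and both Trbc genes had no read, Lck was still at 0.866 FPKM, Thy1 at 0.657 and Lat, the adaptor that Zap70 phosphorylates, at 0.410. Zap70 ranged from 0.0253 to 11.7 FPKM. Sh2d2a, an adaptor that binds Lck, was at 0.0127 to 6.17 FPKM, and Sit1, a transmembrane adaptor, at 0 to 8.02. Ubash3a, a phosphatase-like protein that dampens receptor signalling, measured 0.0108, 0.0368, 0.246 and 0.179 FPKM in WT cisplatin and 0.330, 1.79, 1.31 and 0.672 in BdP cisplatin. These values did not overlap. Skap1, an adaptor for integrin activation, reached 1 FPKM in 3 libraries, under the filter, with 4.30 FPKM in BdP PBS 2.

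The list holds 3 nuclear factors. Tcf7, which encodes TCF1, a factor of T cell development and of naive and memory cells, was the gene least like the others. It measured 3.32, 4.16, 11.0 and 4.50 FPKM in WT PBS, 4.39, 4.87, 18.3 and 5.87 in WT cisplatin, 7.93, 35.6, 3.42 and 11.1 in BdP PBS and 5.18, 32.3, 8.56 and 14.8 in BdP cisplatin. Its lowest value over 16 tumours was 3.32 FPKM, and WT PBS 4 had 4.50 FPKM of Tcf7 beside no read of Trac. Foxp3, the factor that defines regulatory T cells, measured 0.0813, 0.174, 0.133 and 0.213 FPKM in WT cisplatin and 0.330, 1.40, 4.69 and 0.652 in BdP cisplatin, without overlap. Under PBS its values did overlap, at 0, 0.842, 2.64 and 0.0854 FPKM in WT and 1.38, 4.36, 0.462 and 1.19 in BdP. Bcl11b, a factor of T cell commitment, reached 1 FPKM in 3 libraries, under the filter, with a highest value of 1.85 FPKM.

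The last genes are shared with other lymphocytes. Ltb, the membrane-bound cytokine lymphotoxin beta, which B cells also make, reached 87.0 FPKM in BdP PBS 2 and 45.4 in BdP cisplatin 2. Gimap3, Gimap4 and Gimap6 encode GTPases found in lymphocytes, and reached 28.6, 54.9 and 25.2 FPKM, each in BdP PBS 2. Gimap6 measured 0.586, 1.26, 5.15 and 0.520 FPKM in WT PBS and 12.5, 25.2, 1.80 and 7.07 in BdP PBS, where 3 of 4 libraries were above the highest WT library.

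Comparing BdP with WT tumours asks whether low Pros1 in the tumour cells goes with more T cell RNA. Without the drug, the means of all 29 genes past the filter were higher in BdP, but no gene passed the test. By limma (Benjamini-Hochberg adjusted p under 0.05 over 12319 genes), 0 of 29 were called higher or lower, where 0.414% of all genes were called higher and 0.576% lower. The median difference was 1.08 on the log2(FPKM + 1) scale, beside 0.01 over all genes tested, and 51.3% of all genes had a positive difference. The largest was that of Trbc2 (2.61 ± 1.16, SE) and the smallest that of Cd28 (0.47 ± 0.37). Gimap6 had the smallest p, with a difference of 1.98 ± 0.78 (adjusted p = 0.194), followed by Ubash3a at 0.82 ± 0.34 (adjusted p = 0.217) and Gimap3 at 1.88 ± 0.80 (adjusted p = 0.221). Trac differed by 2.35 ± 1.04 (adjusted p = 0.236), Cd3e by 0.99 ± 0.56 and Cd8a by 0.94 ± 0.81 (adjusted p = 0.332 and 0.524). At an unadjusted p under 0.05 there were 5 genes (Trac, Trbc2, Ubash3a, Gimap3 and Gimap6), or 17.2%, near the 19.3% of all genes. A model on recovered reads (voom) gave 0 calls and 0 genes at that level. Other settings gave 0 genes (a weight per library), 3 (a fit to only the 2 groups) and 26 (TPM). That count of 5 was 0 without any 1 of WT PBS 1, WT PBS 4, BdP PBS 1 or BdP PBS 2, and 2 without WT PBS 2 or BdP PBS 4. It was 18 when either BdP PBS 3 or WT PBS 3 was left out, and 8 when WT cisplatin 3 was. The share of all genes at that level in these fits is not given here. Calls over all genes moved too, from 51 higher and 71 lower to 147 and 209 without WT PBS 3. Without BdP PBS 3 they were 22 and 53. By role, the median was 1.28 for the 7 receptor and CD3 genes, 1.30 for the 3 coreceptors, 1.08 for 7 surface genes, 0.94 for 6 signalling genes, 0.76 for the transcription factors Tcf7 and Foxp3, and 1.93 for Ltb and the Gimap genes.

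The values under PBS depended on scaling and on single tumours. When libraries were rescaled to TPM, 6 genes were called higher by limma (Trac, Trbc1, Trbc2, Ltb, Gimap3 and Gimap6, smallest adjusted p = 0.029), where 0.739% of all genes were called higher and 0.00812% lower. TPM also moved the median of all genes by 0.81, and the T cell median exceeded that of all genes by 1.13. It divides each library by the sum of its values, mitochondrial genes included, and these took 76.9% of reads in WT PBS 1. How far the 6 calls rest on that library was not tested. The median was 0.58 without BdP PBS 2 and 1.55 without BdP PBS 3, and 1.00 without the 3 libraries rich in mitochondrial reads.

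Under cisplatin the 29 genes again had higher means in BdP tumours, with a median difference of 1.50 beside 0.01 over all genes. None passed the test: by limma 0 of 29 were called, where 0.349% of all genes were called higher and 0.722% lower. Thy1 differed by 2.07 ± 0.85 (adjusted p = 0.306), Zap70 by 1.59 ± 0.64 (adjusted p = 0.298) and Cd6 by 1.53 ± 0.61 (adjusted p = 0.292, the smallest). Ltb had the largest difference, 2.30 ± 0.98 (adjusted p = 0.32), and Cd28 again the smallest, 0.63 ± 0.37. Cd3e differed by 1.06 ± 0.56, Cd4 by 1.34 ± 0.61 and Cd8a by 1.50 ± 0.81 (adjusted p = 0.419, 0.355 and 0.43). Icos had a mean 14.3 times that of WT (2.52 against 0.176 FPKM) and Foxp3 11.8 times (1.77 against 0.150), both from low levels, with differences of 1.27 ± 0.55 and 1.03 ± 0.49 (adjusted p = 0.33 and 0.365). Without BdP cisplatin 3 these ratios of means were 6.21 for Icos and 5.29 for Foxp3, and without WT cisplatin 4 that of Icos was 22.8. At an unadjusted p under 0.05 there were 11 genes (37.9%, beside 13.8% of all genes): Cd4, 5 of 7 surface genes (Cd2, Cd5, Cd6, Icos, Thy1), the signalling genes Lck, Zap70 and Ubash3a, and Ltb and Gimap3. By voom there were 0 calls and 3 genes at that level. Other settings, also with 0 calls, gave 20 genes (a weight per library), 21 (a fit to only the 2 groups) and 27 (TPM). The count of 11 was 0 without any 1 of WT cisplatin 1, WT cisplatin 2, BdP cisplatin 2 or BdP cisplatin 3, and 5 to 7 without WT cisplatin 4, BdP cisplatin 4 or WT PBS 2. It was 17 without BdP PBS 2, 23 without WT cisplatin 3 and 24 without BdP cisplatin 1. The share of all genes at that level in these fits is not given here. Calls over all genes went from 43 higher and 89 lower to 13 and 45 without WT cisplatin 3. Without BdP cisplatin 1 they were 12 and 50. The median of the 29 genes was 1.21 without BdP cisplatin 3 and 1.92 without BdP cisplatin 1. It was 1.96 without the libraries rich in mitochondrial reads, all of them WT. That fit had only WT cisplatin 1 and 2 in their group and lacked its high library, WT cisplatin 3.

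**Figure D3:**
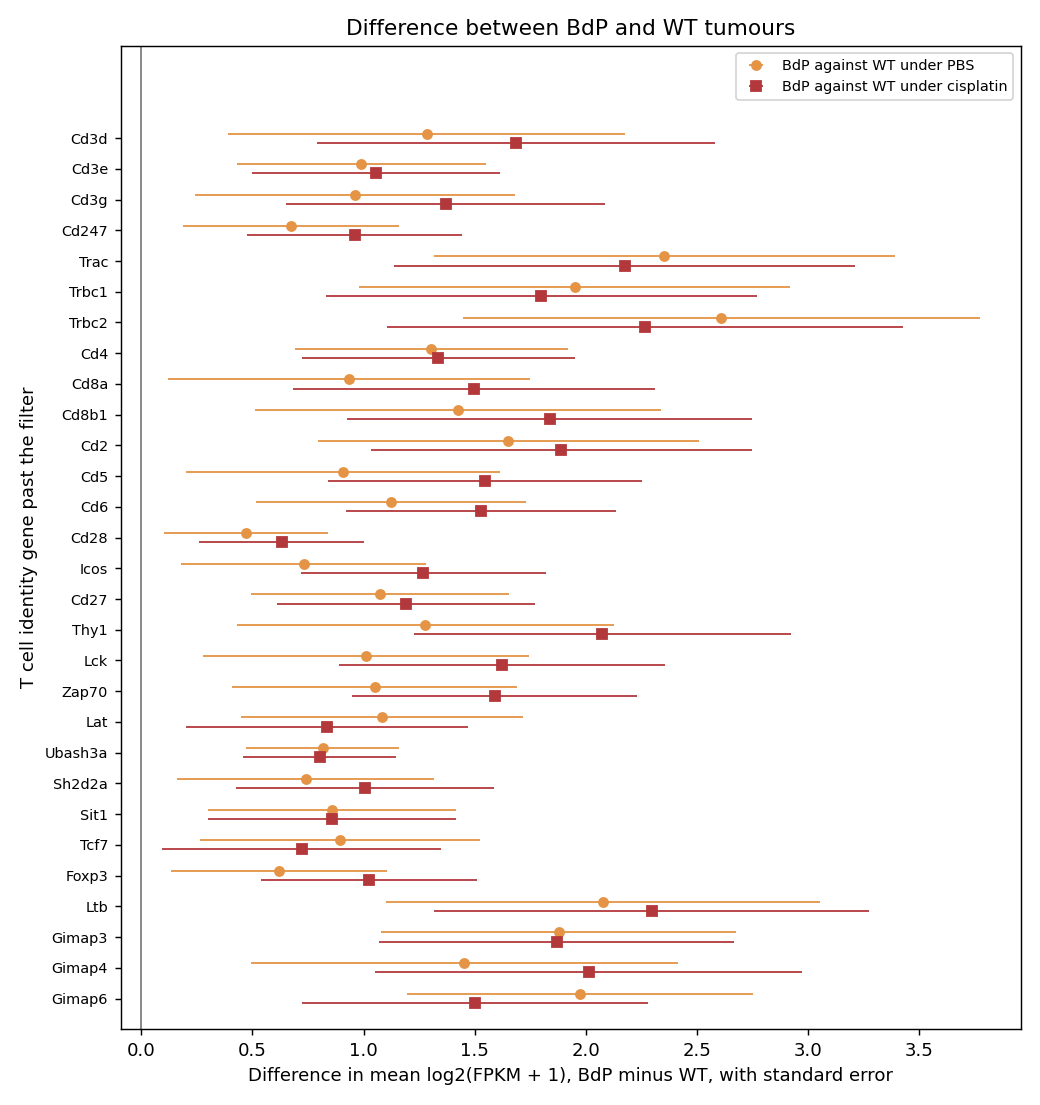
Difference in mean log2(FPKM + 1) between BdP and WT tumours (horizontal axis) for the 29 genes past the filter (vertical axis). Circles are PBS, squares cisplatin, and bars the moderated standard error. All 58 points lie above 0, from 0.47 to 2.61, and no gene was called.

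A count that needs no model gave few separated genes. Under PBS none of the 31 had all 4 BdP values above or below all 4 WT values, where 3.36% of all genes tested were higher in this sense and 4.32% lower. Under cisplatin 2 were separated (Foxp3 and Ubash3a, both higher), both among the 29 past the filter. This is near the share of all genes tested, of which 6.41% were higher in this sense and 6.6% lower. In TPM 5 were separated (Thy1, Zap70, Icos, Foxp3 and Ubash3a), where 4.3% of all genes were higher in this sense and 1.21% lower.

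Comparing cisplatin with PBS asks what the drug did to the T cell RNA of end-stage tumours. In WT tumours 8 of the 29 genes had a positive difference and 21 a negative one, with a median of -0.19 beside -0.01 over all genes. None was called by limma (0 of 29, where 0.00812% of all genes were called in either direction), and none had an unadjusted p under 0.05. Differences ran from -0.83 ± 0.71 for Cd5 (adjusted p = 0.739) to 0.38 ± 0.63 for Tcf7, and the 7 surface genes tested were all negative. In BdP tumours 15 were positive and 14 negative, with a median of 0.01 and a range from -0.21 (Ubash3a) to 0.38 (Thy1). Again 0 of 29 were called and 0 had an unadjusted p under 0.05, beside 0% of all genes called. No gene separated all 4 libraries in WT (1.75% of all genes higher, 1.49% lower) or in BdP (2.48% higher, 1.94% lower). The standard errors, 0.34 to 1.16, are larger than most of these differences, so changes of this size were not detectable with 4 tumours a group. These directions rested on single tumours. The WT median was 0.24 without WT PBS 3 (26 genes positive), -0.64 without WT PBS 4 and -0.59 without WT cisplatin 3 (0 positive). It was -0.90 (0 positive) without the libraries rich in mitochondrial reads, with only WT cisplatin 1 and 2 in their group. The BdP median was 0.54 without BdP PBS 2 (28 positive) and -0.50 without BdP PBS 3 (0 positive).

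The interaction, the cisplatin difference in BdP minus that in WT, was not called for any of the 29 genes (0 by limma and by voom, 0 at an unadjusted p under 0.05, beside 0% of all genes called). Its median was 0.24, with 20 genes positive. The median was -0.28 without BdP PBS 3 (6 positive), -0.19 without WT PBS 3 (5 positive) and 0.67 without BdP PBS 2 (29 positive). It was 0.87 (29 positive) without the libraries rich in mitochondrial reads, with only WT cisplatin 1 and 2 in their group. The interaction ran from -0.47 for Gimap6 to 0.80 for Thy1. In the fit to all 16 libraries the 7 surface genes were positive, with Icos of the smallest p (adjusted p = 0.928).

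**Figure D4:**
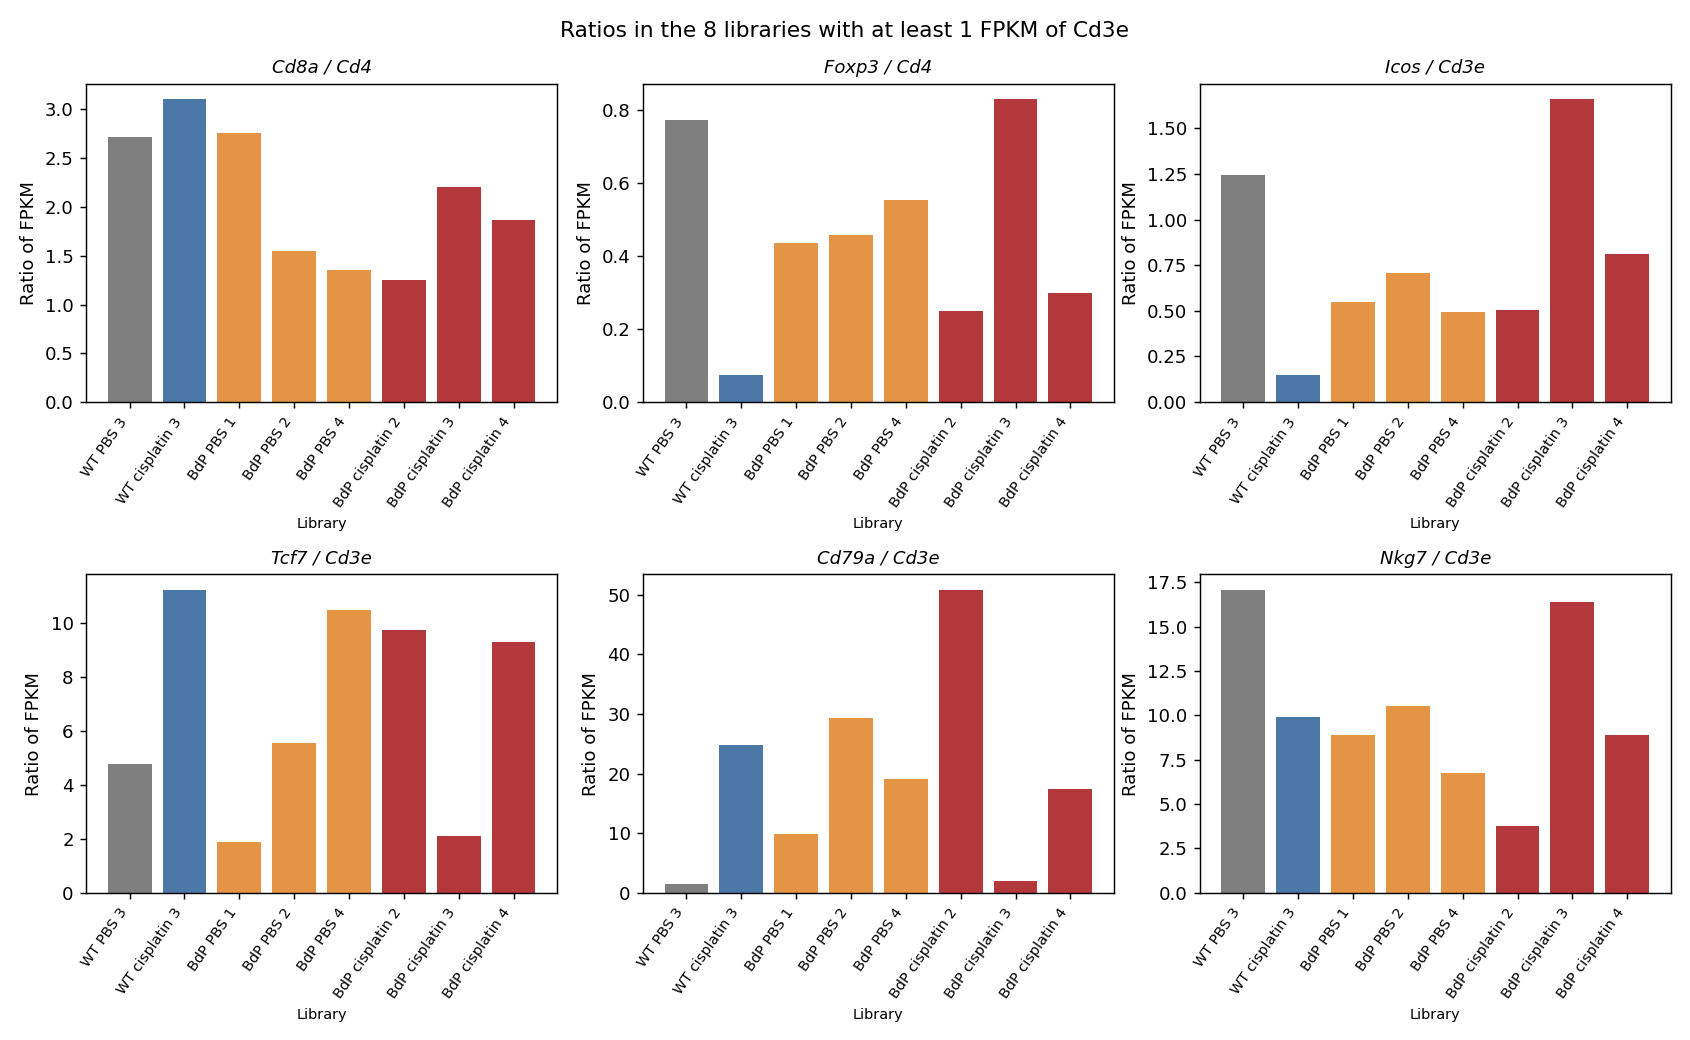
Ratios between the FPKM of pairs of genes (vertical axes, from 0) in the 8 libraries with at least 1 FPKM of Cd3e (horizontal axes), coloured by group. WT PBS 3 and BdP cisplatin 3 have high Foxp3 over Cd4 and Icos over Cd3e and low Cd79a over Cd3e, and BdP cisplatin 2 has the highest Cd79a over Cd3e.

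Ratios between genes set the T cell transcripts against each other. The 8 libraries with at least 1 FPKM of Cd3e were chosen for having measurable T cell RNA, and their ratios are given as a description. Cd8a over Cd4 ran from 1.25 (BdP cisplatin 2) to 3.11 (WT cisplatin 3). Foxp3 over Cd4 varied more, from 0.0750 in WT cisplatin 3 to 0.830 in BdP cisplatin 3 and 0.772 in WT PBS 3. Icos over Cd3e was lowest in WT cisplatin 3 (0.147) and highest in BdP cisplatin 3 (1.66) and WT PBS 3 (1.24). Tcf7 over Cd3e showed another order: 11.2 in WT cisplatin 3, 10.5 in BdP PBS 4 and 9.72 in BdP cisplatin 2, against 1.88 in BdP PBS 1 and 2.10 in BdP cisplatin 3. So tumours of 1 group with like amounts of T cell RNA differed in these ratios, as BdP cisplatin 2 and 3 did.

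Over all libraries, 6 ratios (Cd8a over Cd4, and Cd8a, Cd4, Foxp3, Tcf7 and Icos over Cd3e) were compared in 4 pairs of groups, on log2 of (FPKM + 0.1). None of the 24 passed an exact two-sided permutation test after Benjamini-Hochberg adjustment (smallest adjusted p = 0.686), a family in which the smallest exact p of 0.0286 would rarely pass. Tcf7 over Cd3e was lower in BdP than in WT under cisplatin by a mean log2 ratio of -1.39, from 4.10 ± 0.64 to 2.71 ± 1.11 (SD, n = 4, exact permutation p = 0.0286, adjusted p = 0.686). The difference was -0.83 without BdP cisplatin 3 and -1.62 without BdP cisplatin 1. Under PBS it differed by -0.89 (exact permutation p = 0.4). This ratio moved with the amount of Cd3e: it was 161.6 in WT PBS 4 and 82.9 in WT cisplatin 1, which had little Cd3e, and 1.88 in BdP PBS 1. It therefore does not describe make-up apart from amount. Cd8a over Cd4 differed by -1.23 under PBS (exact permutation p = 0.314), or -0.30 without WT PBS 1, which had no read of Cd4. Under cisplatin it differed by -0.07, and by 0.12 or 0.16 with 0.5 or 1 FPKM added in place of 0.1.

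Other genes of the receptor's pathway mostly had positive differences between BdP and WT, and none was called. Of 25 further signalling genes, 23 were tested, and 21 had a positive difference under PBS (median 0.79) and 20 under cisplatin (median 0.80), with 0 called. Those with the smallest p under PBS were Malt1, the protease of the complex that turns receptor signals to NF-kB (1.05 ± 0.32, adjusted p = 0.122), the transcription factor Nfatc1 (1.08 ± 0.41, adjusted p = 0.181) and the phosphatase Ptpn6 (0.93 ± 0.39, adjusted p = 0.212). Under cisplatin Nfatc1 differed by 1.24 ± 0.41 (adjusted p = 0.195) and Bcl10, a partner of Malt1, by -0.34 ± 0.14 (adjusted p = 0.322). Most of these signalling genes are also used by other leukocytes. Of 12 genes of naive, memory and homing cells, 9 were tested, and 9 were positive under PBS (median 1.24) and 8 under cisplatin (median 0.99), with 0 called. Of 10 further genes of regulatory T cells 5 were tested, and all 5 were positive under either treatment (medians 0.60 and 1.20), with 0 called. Tnfrsf18, the receptor GITR, differed by 1.72 ± 0.61 under cisplatin (adjusted p = 0.231). Of 8 markers of gamma-delta T cells 2 were tested, both positive under either treatment, with 0 called. Of these, Trdv4 reached 1 FPKM only in BdP libraries (at most 0.761 FPKM in WT), so passing the filter largely fixed its sign. Itgae, of the regulatory T cell list, reached 1 FPKM in WT only in WT PBS 3 (1.88 FPKM). Sign counts of lists tested only in part can thus be weighted to genes high in BdP. The 8 gamma-delta markers together summed to at most 13.1 FPKM, in the BdP PBS group.

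Markers of other immune cells moved with the T cell genes, and their part in the differences above was not tested. For B cells, 10 of 10 markers were positive in BdP under PBS (median 2.29) and under cisplatin (median 1.13), with 0 called. Their summed level was 1.53 to 11.3 FPKM in WT PBS, 3.02 to 103.5 in WT cisplatin, 8.44 to 485.5 in BdP PBS and 2.51 to 407.8 in BdP cisplatin. Cd79a, of the B cell receptor, was at 187.9 FPKM in BdP PBS 2, 168.9 in BdP cisplatin 2, 41.8 in BdP PBS 1 and 40.4 in WT cisplatin 3. It was at 3.36 FPKM in WT PBS 3 and 8.10 in BdP cisplatin 3, also rich in T cell genes. Per unit of Cd3e, Cd79a ran from 1.46 in WT PBS 3 to 50.9 in BdP cisplatin 2.

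NK cell markers also had 10 of 10 positive differences under PBS (median 0.68) and under cisplatin (median 1.20), with 0 called, and summed levels of 0.227 to 71.9 FPKM in WT PBS, 2.16 to 22.9 in WT cisplatin, 9.47 to 115.7 in BdP PBS and 23.8 to 139.5 in BdP cisplatin. They were highest in BdP cisplatin 3 (139.5 FPKM) and low for its T cell level in BdP cisplatin 2 (23.8 FPKM). NK cells share Cd247, Lck, Zap70, Lat, Cd2 and Thy1 with T cells to varying degrees. Macrophage markers, 10 of 10 positive under either treatment (medians 0.58 and 0.75) with 0 called, summed to 48.5 to 861 FPKM in WT PBS, 56.2 to 251 in WT cisplatin, 234 to 859 in BdP PBS and 65.3 to 641 in BdP cisplatin. The lowest BdP value was that of BdP cisplatin 2. Dendritic cell markers, of which 5 of 10 were tested, were positive in 4 under PBS and 5 under cisplatin, with 0 called and sums of 2.10 to 60.2 FPKM over all groups.

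Genes that mark lymph node tissue were at 0, low, or highest in the libraries richest in B cell markers. Of 7 in the table, Ccl21a, Ccl21b and Ccl19, the chemokines of lymph node stroma, were listed at 0 in all 16 libraries (the first pair are near-identical copies, whose reads a counter may discard). Cr2, on follicular dendritic cells and also on B cells, was tested alone and reached 7.91 FPKM in BdP PBS 2 and 6.94 in BdP cisplatin 2. The summed level was 0 to 0.268 FPKM in WT PBS, 0.00888 to 1.48 in WT cisplatin, 0.123 to 7.99 in BdP PBS and 0.0232 to 7.02 in BdP cisplatin. Fibroblast sums (10.6 to 36.2 FPKM), endothelial sums (3.39 to 10.9 FPKM) and melanocyte sums (5550 to 9697 FPKM) overlapped between groups, with 0 of 4, 0 of 3 and 0 of 10 tested genes called in either genotype comparison.

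**Figure D5:**
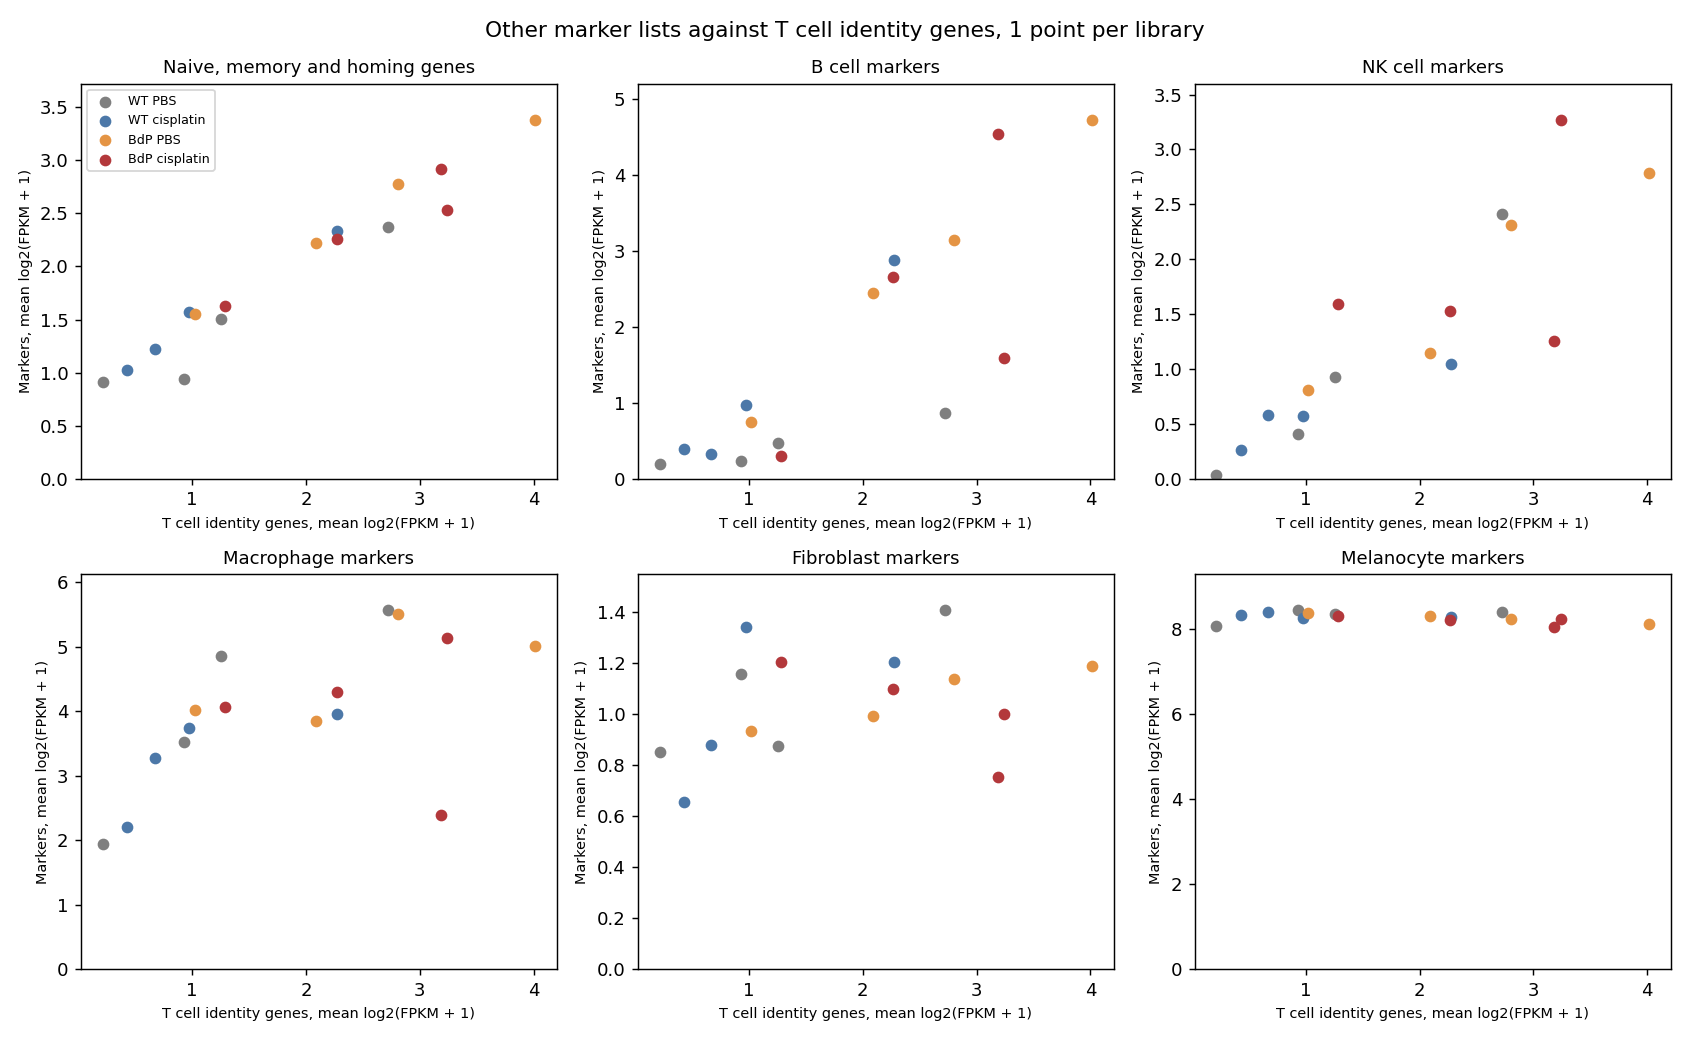
Mean log2(FPKM + 1) of 6 marker lists (vertical axes) against that of the 31 T cell identity genes (horizontal axes), 1 point per library, coloured by group. Naive, memory and homing genes follow the T cell genes closely, B and NK cell markers part at high T cell levels, and melanocyte markers are nearly level.

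As a description over 16 libraries, the Pearson r between the mean of the tested T cell genes and that of a list was 0.97 for naive, memory and homing genes, 0.88 for regulatory T cell genes, 0.87 for NK cells, 0.84 for B cells, 0.60 for macrophages, 0.32 for fibroblasts and -0.41 for melanocytes. Without BdP PBS 2 and BdP cisplatin 3, the 2 libraries farthest from the median, these were 0.97, 0.83, 0.82, 0.84, 0.51, 0.32 and -0.25. Of all other protein-coding genes past the filter, the 10 most like the T cell mean had r from 0.98 to 0.99. They were Ms4a4b, a membrane protein of T and NK cells (r = 0.99), Ms4a6b, Gpr171, Sept1 (given under a date in the table and named from its identifier), Ptprc, the pan-leukocyte phosphatase CD45, Il2rg, the common gamma chain of cytokine receptors, Grk2, Agap2, Psd4 and Ptpn22, a phosphatase that restrains Lck. Ms4a4b measured 0.874, 1.03, 5.27 and 0.0220 FPKM in WT PBS, 0.0960, 0.302, 3.18 and 0.533 in WT cisplatin, 4.55, 11.5, 0.835 and 2.08 in BdP PBS and 1.53, 6.58, 7.75 and 2.75 in BdP cisplatin. The same tumours were high for it as for Cd3e, with BdP PBS 2 highest. Its choice by r with a mean that includes Cd3e largely fixed this.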

How the data were processed

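RNA from 16 tumours was sequenced as 1 library each (4 groups of 4). The deposited values are FPKM made by the authors. The submitters' processing notes list featureCounts 1.5.0-p3, HISAT2 2.0.5, CASAVA and the build GRCm38 (mm10). FPKM multiplied by gene length (other deposited column) was a whole multiple of 1 step for 100% of values within 0.1 read, which gave reads per gene. The step matched median-of-ratios scaling (1.00 in each library), so values were not rescaled.

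Genes that reached 1 FPKM in 4 or more libraries were modelled as log2(FPKM + 1) in limma 3.58.1 (R 4.3.3) with group means over all 16 libraries, empirical Bayes with trend, and a call at a Benjamini-Hochberg adjusted p under 0.05. The log2 scale with 1 added understates changes of low genes. Ratios used an exact permutation test. The step across all genes was tested on simulated data. The 31 genes, the other lists and the naming rules (all 31; of other lists up to 3 genes of smallest p in a comparison, others being shown as levels after their values were seen; the 10 genes of highest r) were chosen with earlier results of these data known. Alternatives were pseudocounts, filters, TPM, quantile scaling, a replicate block, 2-group fits, array weights, libraries left out and, added after seeing the data, voom on recovered reads. The labels do not say that replicates came from separate mice, so p-values measure the spread between these samples. Of 31 genes, 28 lie at the same position in GENCODE M21. Some genes named by these rules are not reported here.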

Additional observations from a re-analysis of the deposited data

Results flagged for a closer look

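Each of the 31 genes was examined in each of 4 groups for a tumour far from the other 3. On the log2(FPKM + 1) scale, 3 of 124 such groups (2.42%) had one. A rate of about 1 in 20 would hold for independent, normally distributed values. These genes moved together, so 2.42% cannot be set against it. Ubash3a, a restrainer of receptor signalling, was at 1.38 FPKM in WT PBS 3, far above the 0 to 0.110 FPKM of the other WT PBS tumours. Sit1 was at 2.22 FPKM in WT cisplatin 3, beside 0.259 to 0.285 FPKM in the other 3 tumours of that group. Bcl11b was at 0.827 FPKM in WT cisplatin 3, beside 0.0101 to 0.115 FPKM. Both tumours are the high T cell library of their group.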

How the results depend on the processing

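Between BdP and WT every member tested had a positive difference under all 27 alternatives in each comparison. These were 29 genes, but 27 under the stricter filter and 31 with no filter. Some alternatives could not change a difference: the replicate block, the 2-group fits and leaving out a library of the other treatment. The genes also moved as a block, so these counts are not separate checks. In both comparisons with cisplatin and in the interaction, no member was called under any alternative (smallest adjusted p = 0.372). In BdP against WT under PBS, members were called in 1 of 27 alternatives: TPM gave 6 called higher, namely Trac (3.37), Trbc1 (3.15), Trbc2 (3.50), Ltb (3.09), Gimap3 (2.90) and Gimap6 (2.77), where 0.739% of all genes were called higher and the median of all genes moved by 0.81. Under cisplatin none was called (smallest adjusted p = 0.0843), and TPM raised the count of non-overlapping members from 2 to 5, where 6.41% of all genes were higher without overlap in FPKM and 4.3% in TPM. Voom on recovered reads, added after seeing the data, gave medians of 2.61 under PBS and 2.73 under cisplatin, on a scale without 1 FPKM added. Leaving out 1 library gave medians of 0.58 to 1.55 (BdP against WT, PBS), 1.21 to 1.92 (cisplatin), -0.64 to 0.24 (cisplatin in WT), -0.50 to 0.54 (cisplatin in BdP) and -0.28 to 0.67 (interaction). Without the libraries rich in mitochondrial reads the medians were -0.90 (cisplatin in WT) and 0.87 (interaction), with only WT cisplatin 1 and 2 in their group. Signs were not stable in the comparisons with cisplatin: with 1 library left out, 0 to 26 of 29 genes were positive in WT, 0 to 28 in BdP and 5 to 29 in the interaction. Of the genes named there at the ends of a range, signs turned for Tcf7 with cisplatin in WT (-0.043 to 0.70 with 1 library left out, and -0.31 without the libraries rich in mitochondrial reads), for Thy1 with cisplatin in BdP (-0.26 to 1.05) and for the interaction of Gimap6 (-1.06 to 0.16, and 0.68 without those libraries). Cd8a over Cd4 under cisplatin was 0.12 and 0.16 with 0.5 and 1 FPKM added, and -0.19 to 0.15 with 1 library left out. Other causes of these shifts were not tested. The replicate block could not move the medians of 1.08 and 1.50, since each number occurs in every group. With it no member was called by limma (smallest adjusted p = 0.213 and 0.301). Same-numbered tumours did not deviate together (r from -0.61 to 0.42 over 24 pairs, median 0.02), so the numbers were not taken to pair samples. The planned count models were not run because the deposited values are FPKM. Depth limits WT PBS 1 most, with 182 reads over the 31 genes.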
